A study of Homo sapiens with 4 samples.

Results

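The cornified envelope and squamous differentiation genes described here are SPRR1A, SPRR1B, SPRR2A, SPRR3, IVL, TGM1, SFN, CSTA, PI3 and SERPINB5. They are 10 of the 20501 genes that have a probe named through a RefSeq transcript, and they carry 12 of the 50590 probes. Every probe whose transcript belongs to 1 of these genes was taken, whatever its signal. RNA came from MCF-10A, an immortalised line of normal human mammary epithelial cells, and was hybridised to 4 single-colour Agilent arrays. Cells received 10 µM of a peptide called stapled-peptide or non-specific stapled-peptide and were collected after 24 h or 48 h, with 1 array for each peptide and time. All 4 groups therefore share the cell line, the medium and a stapled peptide, and no untreated culture is analysed here. Stapled peptides carry a chemical bridge that holds them in a helix, and the study made them to block the binding of BIG3 to PHB2 in breast cancer cells. The labels name neither peptide by its number in the stERAP series, and they enter the treatment of both non-specific arrays as control. Each difference below is therefore given by label, as non-specific minus stapled-peptide on the log2 scale.

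The cornified envelope is the protein shell that replaces the plasma membrane when a squamous epithelial cell completes its differentiation. Involucrin and the small proline-rich proteins are laid down beneath the membrane, and transglutaminases link them to each other by bonds between glutamine and lysine. Protease inhibitors such as cystatin A and elafin are built into the shell or secreted around it, while stratifin (14-3-3 sigma) and maspin mark stratified and basal epithelia more widely. Mammary myoepithelial and basal cells share part of this programme without forming a stratum corneum.

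With 1 array per peptide and time, no test of any difference was possible, and precision is limited by how few arrays there are. Errors after ± are those that the scanner software gave for a spot, converted to log2, and they hold no variation between cultures. A probe is called dim where the software did not mark its spot as well above background. Where only 1 of the arrays compared measured a probe, the dim side was set to the larger of its own signal and the smallest marked signal on that array. Where the smallest marked signal was the larger, such a difference is a limit, so that the true difference may be larger in size. Where the spot's own signal was used, the value is the measured difference and leaves out the error of the dim spot. This holds at 48 h for SERPINB5 and SPRR1B, and for WFDC2, TGM5 and KLK6 among the genes named below. At 24 h the smallest marked log2 signals were 3.94 and 3.78, while 3.89 and 3.57 applied at 48 h. Values of a time are given with stapled-peptide first throughout. All 12 member probes were single spots, and 0 of them were marked as outliers or as saturated on any array.

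The 48 h array of non-specific stapled-peptide stood apart from the others over all probes. Its log2 signals correlated with theirs at r = 0.799 to 0.807, whereas the other 3 arrays correlated with each other at 0.976 to 0.978. The correlations cover 32704 to 36193 probes that share the slide and the normalization. Markers of basal mammary epithelium were above background for 12 of 12 genes on the other 3 arrays and for 10 of 12 on this array, and their summed linear signal was 110617 to 111220 on the others against 678 here. Genes listed as markers of a human embryonic kidney line were above background for 8, 8 and 9 of 20 genes on the others and for 15 here. Their summed signal was 2009 to 2117 against 45082, with LIN28A and PHOX2A dim on all 4 arrays. PEG10 went the other way, at log2 signals of 8.48 to 8.60 on the others and dim here, a limit of -4.92 at 48 h. Luminal markers summed to 51943 to 53550 on the others against 39324, fibroblast markers to 32100 to 34720 against 209.9, and leukocyte markers to 1508 to 1599 against 378.4. Between the peptides at 48 h, by brightest probes, 12 of 12 basal markers were lower by over 2-fold (median -5.87), as were 5 of 7 fibroblast markers (-2.12), 3 of 7 leukocyte markers (-0.49) and 3 of 10 luminal markers (-0.23), whereas 13 of 18 embryonic kidney markers were higher (4.33). The basal markers thus go against the cell type named by the label of this array alone, and the part of these shifts in the results below was not tested. All of these marker lists were chosen with earlier results of these data known. Over all 17112 genes at 48 h, 19.8% were lower and 21.2% higher by over 2-fold. All 4 arrays lay on 1 slide with 1 scan time. No comparison of the peptides at 48 h exists without this array, so the values at 24 h and those of stapled-peptide over time are given as the ones that do not compare it. They still share the normalization over 4 arrays, which includes it.

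At 48 h, 9 of the 10 member genes were lower with non-specific stapled-peptide than with stapled-peptide, and SERPINB5 and SFN were lower by over 100-fold. CSTA and PI3 were lower by over 10-fold, TGM1 by 6.32-fold, and SPRR1A and SPRR2A by 1.87-fold and 1.21-fold. IVL and SPRR1B were dim on the non-specific array. IVL had a limit of at least 2.10-fold lower, SPRR1B was 2.03-fold lower by its own dim signal, and SPRR3 was 0.15 higher on the log2 scale. The median difference of the 10 genes was -1.87, against 0.03 over the 17102 other genes with a difference, of which 48.8% were lower. The central 90% of their differences lay between -2.84 and 2.56. Counts past a fold limit were 2 of 10 members at over 100-fold lower, where 0.707% of all 17112 genes passed, and 4 of 10 at over 10-fold lower, where 3.92% passed. At over 2-fold lower the count was 7 of 10 members beside 19.8% of all genes, and at over 2-fold higher it was 0 of 10 beside 21.2%. Without normalization between arrays the median of all genes moved from 0.03 to 0.26, and the genes past 2-fold moved from 3391 lower and 3629 higher to 2787 lower and 4664 higher. Member counts then stood at 2, 4 and 5. In bulk RNA, fewer cells of a type and less RNA per cell cannot be told apart.

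**Figure D1:**
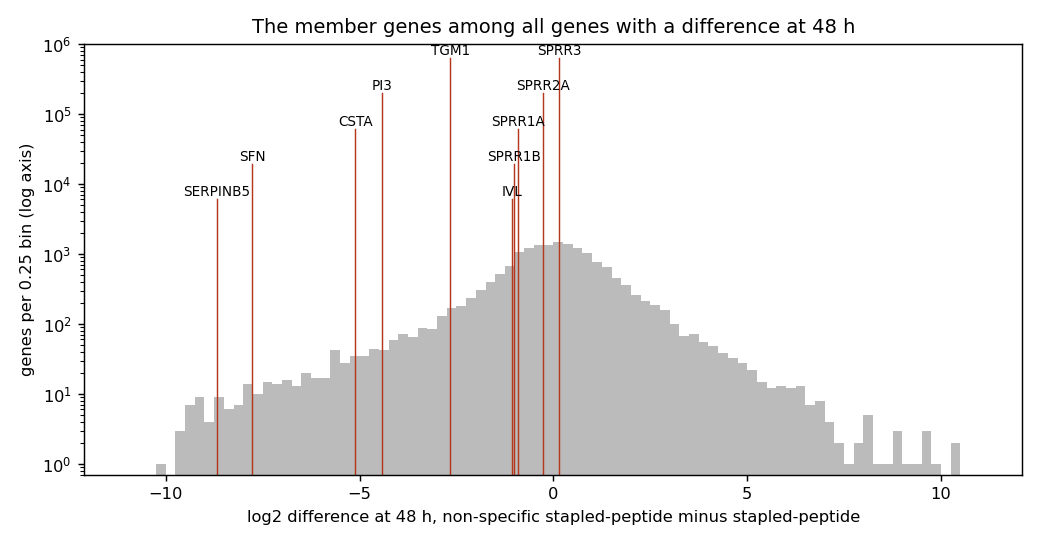
Grey bars count all 17112 genes by their log2 difference at 48 h, non-specific stapled-peptide minus stapled-peptide, on a log axis, and red lines mark the 10 member genes (line heights only separate the names). SERPINB5 and SFN lie in the far left tail at -8.69 and -7.76, CSTA, PI3 and TGM1 between -5.11 and -2.66, and IVL and the SPRR members within the main body of the genes.

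At 24 h the same genes differed little between the peptides. Of the 9 members above background on either array at 24 h, 0 passed 2-fold, beside 1.87% of 16228 genes, and their differences ran from -0.19 to 0.17 with a median of 0.02. All 9 differences were smaller than their own error of 0.20 to 0.35. With stapled-peptide alone, 48 h against 24 h gave 0 of 10 members past 2-fold, beside 2.06% of 16138 genes, and a range of -0.18 to 0.06. With non-specific stapled-peptide, 48 h against 24 h gave 4 of 10 members lower by over 10-fold, beside 3.91% of 17297 genes, and a median of -2.02. That comparison shares the 48 h non-specific array with the comparison of peptides, so it is the same array seen from another side, and the other comparisons share arrays in the same way.

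Spread over the other 3 arrays was the closest measure of repeatability, though these arrays differ in peptide and time. For the 9 member genes above background on all 3, the signals of the brightest probe spanned 0.02 (SERPINB5) to 0.26 (IVL) on the log2 scale. Probes above background on all 3 numbered 27925. Their median span was 0.42 at mean signals below 5, 0.27 from 5 to 8, 0.12 from 8 to 11 and 0.09 above 11. IVL, SPRR1B and SPRR2A lay in the dimmest of these classes, and SFN and SERPINB5 in the brightest. SPRR3, above background on 1 of the 3 arrays, was in no class and spanned 1.59.

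**Figure D2:**
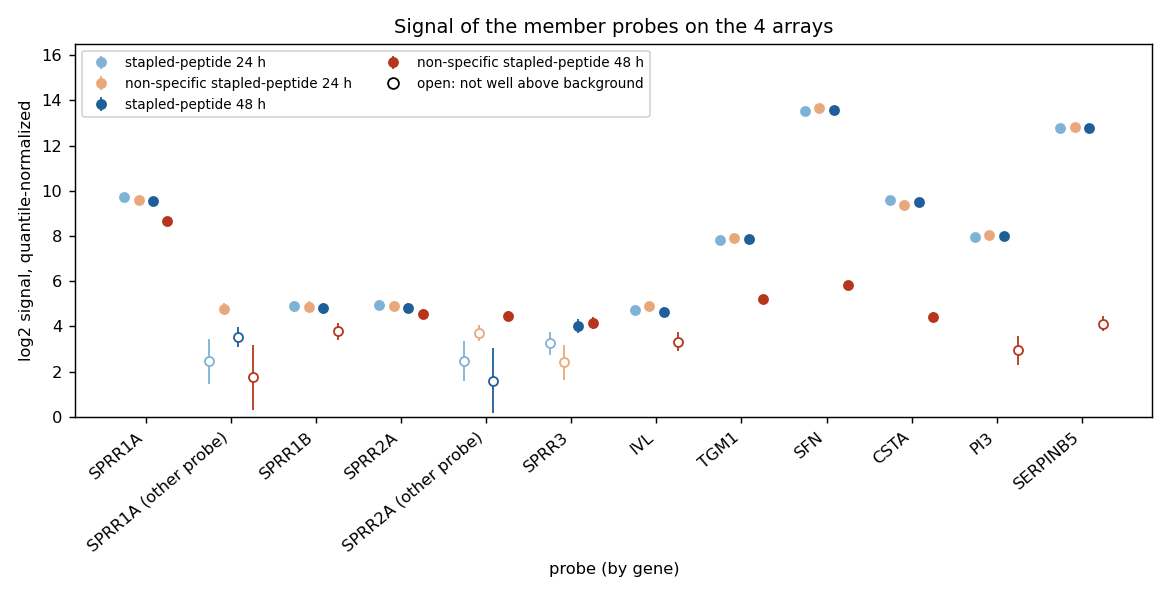
Points give the quantile-normalized log2 signal of each of the 12 member probes on the 4 arrays, with bars for the scanner software's error, and open points mark probes not well above background. On the other 3 arrays the points of TGM1, SFN, CSTA, PI3 and SERPINB5 nearly coincide, and the 48 h non-specific array lies 2.61 or more below the lowest of them.

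IVL encodes involucrin, the early scaffold protein on which the envelope is assembled. Its log2 signal was 4.73 ± 0.22 and 4.89 ± 0.20 at 24 h, then 4.64 ± 0.23 and 3.32 ± 0.41 at 48 h, the last of these dim. The 3 measured arrays overlapped within their errors, and the fourth gave a limit of -1.07 for the difference at 48 h, or at least 2.10-fold lower. SPRR1B, 1 of the small proline-rich proteins that bridge between other envelope proteins, showed a like pattern at 4.89, 4.88, 4.79 and 3.77, again dim on the last array. Its difference at 48 h was -1.02, or 2.03-fold lower, taken from the dim spot's own signal. The error was 0.26 on the measured spot and 0.36 on the dim one. Both values therefore sat close to 2-fold, past which 19.8% of all genes were lower, and under the normexp background correction they were -0.33 for IVL and -0.24 for SPRR1B.

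SPRR1A, a bridging protein induced early in squamous differentiation, was measured on all 4 arrays by its brighter probe. It read 9.73 ± 0.14 and 9.60 ± 0.14 at 24 h, and 9.55 ± 0.14 and 8.65 ± 0.14 at 48 h. The 48 h non-specific array was lower than each of the others, and the difference of -0.90 ± 0.20, or 1.87-fold lower, was 4.41 times its error. The other probe of SPRR1A was dim on 3 arrays and read 4.78 ± 0.23 with non-specific stapled-peptide at 24 h, at least 0.84 higher than with stapled-peptide, where the brighter probe differed by -0.13 ± 0.20. Its signal gave no difference at 48 h because both arrays were dim.

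SPRR2A belongs to a cluster of nearly identical genes, so its probes may also bind transcripts of its neighbours, which was not tested. The brighter probe read 4.93, 4.89, 4.82 and 4.54 on the 4 arrays, a difference at 48 h of -0.28 ± 0.32 that did not exceed its error. The other probe was dim on the first 3 arrays, at 2.47, 3.71 and 1.60, and read 4.46 ± 0.23 on the last, at least 0.58 higher. The probes of SPRR2A thus disagreed in direction, and their mean gave 0.15. SPRR3, a proline-rich protein typical of the oesophagus and other internal squamous epithelia, was dim on both arrays at 24 h and read 4.0 ± 0.31 and 4.15 ± 0.26 at 48 h. Its difference of 0.15 ± 0.41 lay within the error, and its sign turned under scaling to the 75th percentile (-0.11) and under the normexp background correction (-0.10).

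**Figure D3:**
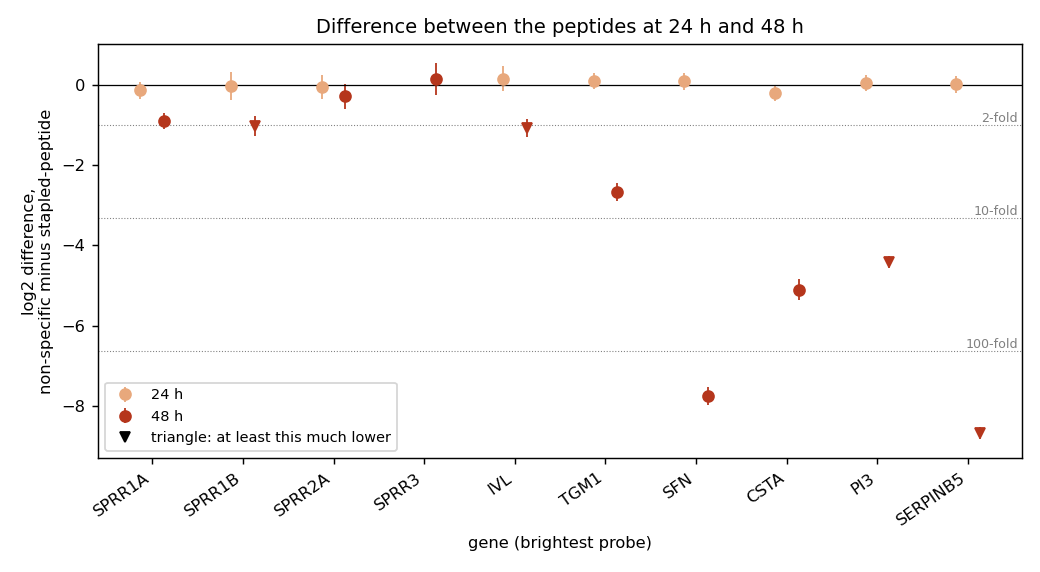
Log2 differences between the peptides (non-specific minus stapled-peptide) at 24 h and 48 h are shown for the brightest probe of each member gene, with bars for the combined scanner error, triangles for lower limits, and no 24 h point for SPRR3. At 24 h the points lie between -0.19 and 0.17, and at 48 h they run from 0.15 (SPRR3) to -8.69 (SERPINB5).

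IVL and the SPRR members lie in the epidermal differentiation complex on chromosome 1, a cluster that also holds the late cornified envelope and fused S100 genes. Their upstream sequences are shown because they share letters that the choice of genes did not use. RefSeq (GRCh38.p14) promoters were in the table for 7 of the 10 members, and TGM1, CSTA and PI3 are named only. Each line below runs 5′ to 3′ on the strand of the gene, from 200 to 21 bases before the start of transcription. Capitals mark TGAGTCA (the core that AP-1 dimers bind, searched on both strands) and TATAAA (the TATA box, searched on the strand of the gene).
IVL, chr1:152908346-152908525, plus strand: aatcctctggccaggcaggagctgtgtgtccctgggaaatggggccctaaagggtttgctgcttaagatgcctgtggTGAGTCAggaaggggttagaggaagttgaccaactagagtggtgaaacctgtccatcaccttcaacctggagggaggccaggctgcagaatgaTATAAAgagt
SPRR1A, chr1:152983881-152984060, plus strand: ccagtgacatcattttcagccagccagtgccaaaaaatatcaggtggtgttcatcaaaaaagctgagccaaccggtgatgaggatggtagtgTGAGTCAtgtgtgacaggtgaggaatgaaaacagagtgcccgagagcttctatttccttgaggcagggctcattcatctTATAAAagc
SPRR1B, chr1:153031003-153031182, plus strand: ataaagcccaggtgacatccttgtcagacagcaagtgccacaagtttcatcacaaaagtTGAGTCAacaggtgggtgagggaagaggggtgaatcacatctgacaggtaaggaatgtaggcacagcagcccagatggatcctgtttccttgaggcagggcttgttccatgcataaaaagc
SPRR2A, chr1:153057533-153057712, minus strand: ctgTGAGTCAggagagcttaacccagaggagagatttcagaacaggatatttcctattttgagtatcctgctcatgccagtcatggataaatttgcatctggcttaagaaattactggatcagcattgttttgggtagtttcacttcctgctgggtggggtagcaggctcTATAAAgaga
SPRR3, chr1:153001549-153001728, plus strand: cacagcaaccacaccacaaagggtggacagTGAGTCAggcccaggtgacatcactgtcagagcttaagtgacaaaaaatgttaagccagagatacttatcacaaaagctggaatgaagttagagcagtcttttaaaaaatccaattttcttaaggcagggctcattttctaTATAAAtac
In the 250 bases before the start, TGAGTCA occurred in all 5 of these genes and in neither SFN nor SERPINB5, beside 4.16% of 27305 promoters. It began 123 bases before the start in IVL, 108 in SPRR1A, 141 in SPRR1B, 197 in SPRR2A and 170 in SPRR3. TATAAA occurred in IVL, SPRR1A, SPRR2A and SPRR3, 29 or 30 bases before the start, beside 7.17% of all promoters, and 0.458% of all promoters held both. These windows held 0 to 2 CpG dinucleotides in 250 bases, where the median promoter held 11. CACCC, the core of sites bound by KLF factors, was searched on both strands and occurred in the 4 SPRR promoters and in SFN, beside 53.7% of all promoters, and it overlapped neither TGAGTCA nor TATAAA. The 4 SPRR genes are of 1 family, so their shared letters are not separate cases beside these shares. A match of letters is a description and not a site shown to be bound.

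TGM1 encodes transglutaminase 1, the membrane-anchored enzyme of keratinocytes that cross-links involucrin and the SPRR proteins. It gave signals of 7.81 ± 0.15 and 7.91 ± 0.15 at 24 h, and 7.86 ± 0.15 and 5.19 ± 0.18 at 48 h. The other 3 arrays lay within 0.10 of each other, and the 48 h non-specific array lay 2.61 below the lowest of them while still above background. The difference at 48 h was -2.66 ± 0.23, or 6.32-fold lower, at rank 966 from the lowest of 17112 genes. At 24 h the difference of TGM1 was 0.10 ± 0.21.

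CSTA encodes cystatin A, an inhibitor of cysteine proteases that is itself cross-linked into the envelope. It read 9.57 ± 0.14 and 9.38 ± 0.14 at 24 h, and 9.5 ± 0.14 and 4.4 ± 0.23 at 48 h. Its difference at 48 h was -5.11 ± 0.27, or 34.4-fold lower, against -0.19 ± 0.20 at 24 h. The last array was the lowest by 4.98, and the gene stood at rank 271 from the lowest of 17112. PI3 encodes elafin, a secreted elastase inhibitor whose repeats are transglutaminase substrates. It read 7.97 ± 0.15, 8.02 ± 0.15 and 7.98 ± 0.15 on the other 3 arrays and was dim, at 2.94 ± 0.63, on the 48 h non-specific array. The limit for PI3 at 48 h was thus -4.41, or at least 21.3-fold lower. Under normexp the differences were -1.62 for TGM1, -3.41 for CSTA and -2.05 for PI3, the last no longer past 10-fold.

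SERPINB5 encodes maspin, a serpin of basal and myoepithelial cells that does not inhibit proteases in the classical way. It gave 12.80 ± 0.14, 12.82 ± 0.14 and 12.79 ± 0.14 on the other 3 arrays, which spanned 0.02 in all. On the 48 h non-specific array it was dim, at 4.11 ± 0.33. That signal was above the smallest marked one, so the difference of -8.69, or 412-fold lower, is the measured one. This was rank 27 from the lowest among 17112 genes and the most negative value of the 10 members. SFN encodes stratifin, the 14-3-3 protein of epithelial cells. It read 13.55 ± 0.14 and 13.64 ± 0.14 at 24 h, and 13.59 ± 0.14 and 5.83 ± 0.16 at 48 h. SFN remained above background on the last array, and its difference was -7.76 ± 0.22, or 217-fold lower, at rank 60. Under normexp, which adds an offset of 50 to every signal, the differences were -6.58 for SFN and -6.38 for SERPINB5, short of 100-fold.

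The promoters of these genes are shown beside those of IVL and the SPRR members, with GGGCGG (the GC box, searched on both strands, so CCGCCC where it lies on the other strand) in capitals. The lines have the same build and the same distances from the start.
SFN, chr1:26862949-26863128, plus strand: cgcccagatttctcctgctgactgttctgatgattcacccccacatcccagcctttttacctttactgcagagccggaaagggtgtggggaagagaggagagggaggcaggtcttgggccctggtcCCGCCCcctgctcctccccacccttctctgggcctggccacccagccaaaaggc
SERPINB5, chr18:63476758-63476937, plus strand: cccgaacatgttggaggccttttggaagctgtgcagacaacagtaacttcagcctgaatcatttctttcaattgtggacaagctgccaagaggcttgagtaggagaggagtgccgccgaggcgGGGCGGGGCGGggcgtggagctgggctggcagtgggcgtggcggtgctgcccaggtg
GGGCGG occurred 74 bases before the start of SFN on the opposite strand, and in an overlapping pair 77 and 72 bases before the start of SERPINB5. It occurred in 42.3% of all promoters and in 0 of the 5 promoters above. The 250 bases before the start held 3 CpG dinucleotides in SFN and 13 in SERPINB5. TGAGTCA and TATAAA occurred in neither.

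By position, the 5 members in the epidermal differentiation complex had differences at 48 h from -1.07 to 0.15 with a median of -0.90, and the 5 members elsewhere from -8.69 to -2.66 with a median of -5.11. These ranges did not overlap, but the sets also differ in signal, since 4 of the 5 in the complex were near the background on every array. A dim probe cannot show a large decrease. Along the complex, the stretch from LCE1C to SPRR2G held 17 genes with a named probe, and 13 of them had a difference at 48 h. In that stretch 7 genes were lower by over 2-fold, 1 was higher and 5 lay within 2-fold, with a median of -1.02. Those counts include the 5 members, and over all 17112 genes 19.8% were lower and 21.2% higher by over 2-fold. By the brightest probes, SPRR2F was the lowest at -2.29 ± 0.21, or 4.90-fold lower. Past 10-fold lower lay 0 of the 13, beside 3.92% of all genes. LCE1C and LCE1A, late envelope proteins with signals near 10.8 with stapled-peptide at 48 h, were lower by 3.24-fold and 3.16-fold, and a second probe of LCE1C differed by -2.58.

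**Figure D4:**
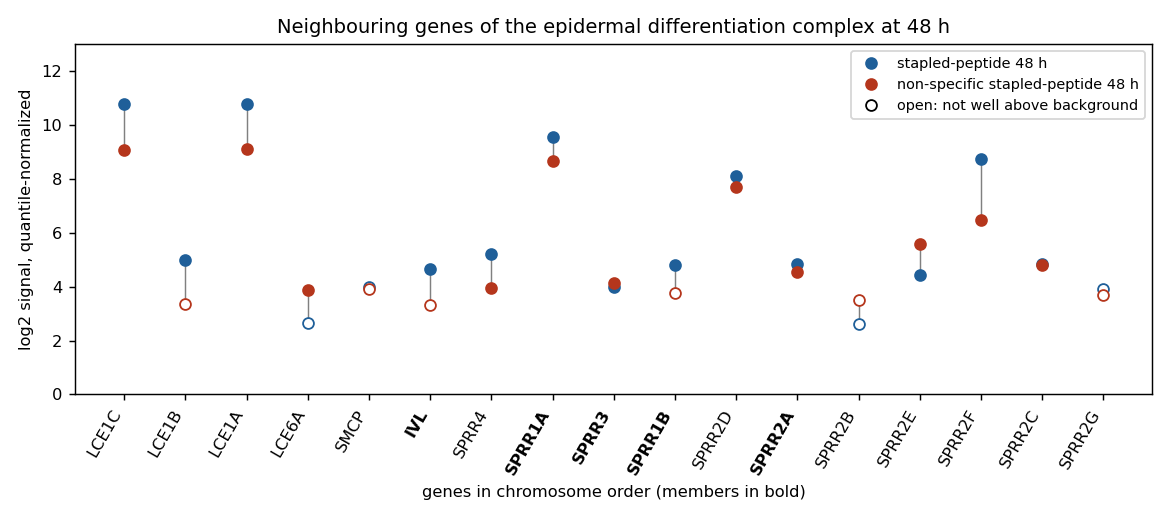
Log2 signals at 48 h with stapled-peptide (blue) and non-specific stapled-peptide (red) are plotted for 17 genes of the epidermal differentiation complex in chromosome order, and open points mark probes not well above background. Most red points lie below the blue ones by less than 2.3, SPRR2E lies 1.13 above, and 3 genes are dim on both arrays.

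Around the other members, neighbours within 5 genes on each side were mixed. On chromosome 20, SLPI, the related secretory leukocyte protease inhibitor that lies 3 genes from PI3, had a limit of -7.82. Beside SFN on chromosome 1, the adjoining genes ZDHHC18 and GPN2 differed by 0.22 and -0.24, while KDF1, a regulator of keratinocyte differentiation that lies 5 genes away, differed by -4.28. Beside SERPINB5 on chromosome 18, VPS4B, an endosomal ATPase, differed by -1.65, and the 5 serpin genes that follow were dim on both 48 h arrays. Of the 8 neighbours of CSTA on chromosome 3 with a difference, 3 were higher by over 2-fold and 1 was lower. EAF2 was 3.34, ILDR1 3.10 and the adjoining MIX23 1.24 higher, while PARP9 differed by -2.34. RABGGTA and TINF2, which flank TGM1 on chromosome 14, differed by -1.18 and -1.07. Counted once each, the 50 neighbours of these 5 members gave 40 differences with a median of -0.47. Of these, 13 were lower by over 2-fold, 3 higher and 24 within, beside 19.8% of all genes lower and 21.2% higher.

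Relatives of the members were taken from lists of genes with like roles, and each difference that follows is at 48 h and, with the counts, from the brightest probe of a gene unless another is named. For all list counts at 48 h, the shares over all 17112 genes were 19.8% lower and 21.2% higher by over 2-fold. Among the other small proline-rich genes, 5 of 7 on the arrays had a difference, with 2 lower by over 2-fold and 1 higher. They were SPRR2F (-2.29), SPRR4 (-1.26), SPRR2D (-0.41, but 0.70 by another probe), SPRR2C (-0.03) and SPRR2E (1.13), while SPRR2B and SPRR2G were dim. Of 29 late cornified envelope and fused S100 genes on the arrays, 16 had a difference, and 4 were lower by over 2-fold and 0 higher, with a median of -0.67. The lowest were LCE1C, LCE1A, LCE1B and LCE1D, at -1.69, -1.66, -1.44 as a limit and -1.02. LORICRIN, which encodes the main protein of the epidermal envelope, was dim on both 48 h arrays, as were FLG2, HRNR and RPTN.

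Proteins that anchor the envelope differed more widely. Among 7 scaffold genes with a difference, 3 were lower by over 2-fold and 0 higher. PPL, the plakin periplakin, had a limit of -8.0, and ANXA1, the envelope-associated annexin, differed by -7.69 ± 0.21. EVPL, the partner plakin envoplakin, differed by -1.47 ± 0.20. Desmosomal and junctional genes gave smaller values, with PKP1 at -0.80 (0.23 by its other probe) and CDSN at -0.75 as limits, PERP at -0.47 and DSP at -0.10, and SCEL was dim. Of the other transglutaminases, TGM2, the tissue enzyme, differed by -2.48 (-3.75 by its other probe), TGM6 by a limit of -0.60 and TGM5 by -0.39 from its own dim signal. TGM3, TGM4, TGM7 and F13A1 were dim at 48 h.

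The families of SFN and of the inhibitors gave mixed differences. By their brightest probes the 6 other 14-3-3 genes lay within 2-fold: YWHAB -0.69, YWHAZ -0.49 (-1.57 by its other probe), YWHAG -0.16, YWHAQ -0.15, YWHAE 0.29 and YWHAH 0.77. Of 3 other cystatins with a difference, CST3 (-3.51) and CST6 (limit -2.86) passed 2-fold and CSTB (-0.99) did not, and CST7 was dim. Among WFDC inhibitors, the domain family of PI3, SLPI (limit -7.82) and WFDC3 (-2.12) were lower by over 2-fold. WFDC2 was 1.98 higher by its own dim signal, and WFDC12 was at least 0.21 higher, while WFDC1, WFDC5 and WFDC13 were dim. Among 6 clade B serpins with a difference, SERPINB8 had a limit of -3.58, SERPINB1 differed by -1.32, SERPINB9 was at least 1.94 higher, and SERPINB10 had a limit of -0.69. SERPINB3 and SERPINB4, squamous relatives of SERPINB5, were dim on all 4 arrays.

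Keratins of suprabasal layers showed 3 of 7 genes lower by over 2-fold and 0 higher. KRT16, an activation keratin, differed by -5.78 ± 0.30, KRT80 by -4.54 ± 0.35, KRT10 by -1.10 ± 0.20 and KRT4 by -0.68 ± 0.34. KRT1 and KRT2, the defining keratins of late epidermal layers, were dim on all arrays.

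**Figure D5:**
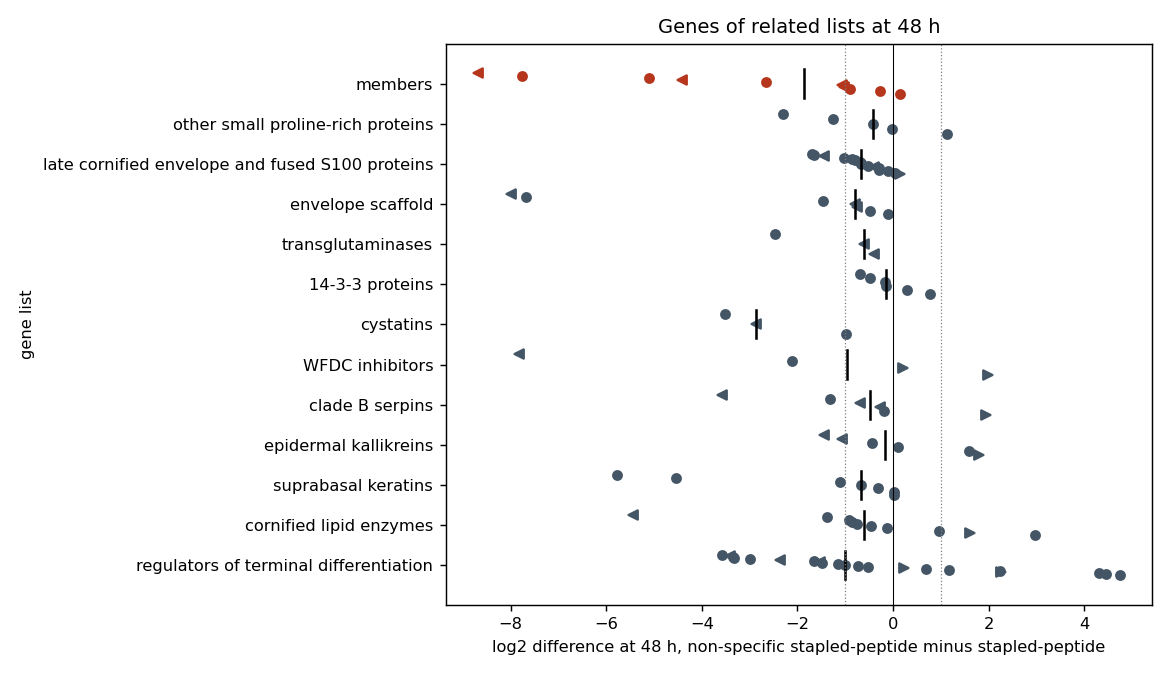
Each point is the log2 difference of 1 gene at 48 h (non-specific minus stapled-peptide), arranged by gene list, with triangles that point away from 0 for genes dim on 1 array, black bars for list medians and dotted lines at 2-fold. The members, in red, reach from 0.15 to -8.69, and 5 of the other genes plotted (PPL, SLPI, ANXA1, KRT16 and ABCA12) lie below -5.

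Genes of which the 4-array profile was most like the median profile of the members were sought among 14833 genes above background on the other 3 arrays. Likeness was the root mean square distance, over the 4 arrays, to the median profile of the 9 members above background on those 3 arrays, after each gene was centred on them. The nearest were HOMER3 (0.0055), ITPKB (0.022), RMDN2 (0.022), PDGFC (0.023) and TRIM7 (0.024), in log2 units. The reference profile lay between -0.01 and 0.02 on the other 3 arrays and at -2.66 on the 48 h non-specific array. That last value is the one of TGM1. Below the lowest of the other 3 arrays, IVL and the SPRR members in the profile lay 0.28 to 1.32, TGM1 2.61 and the other members 4.98 to 8.69. The nearest genes thus share mainly the drop of TGM1 on 1 array and not a drop common to the members.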

How the data were processed

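The authors' Feature Extraction run produced the deposited spot intensities, which are linear, background-subtracted and not normalized between arrays. File headers name version 10.7.1.1 and the labels and methods 9.5. The combined table holds deposited probe intensities from the same arrays.

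Control and outlier-marked spots were removed, a choice made here, as was averaging repeated spots of a probe on the log2 scale. Values were then quantile-normalized over 4 arrays, as the methods state; the later transformation to the median that they also mention was not applied. Where a gene had several probes, the brightest over the 4 arrays stood for it. Symbols and promoters came from RefSeq (GRCh38.p14). Probe positions in the files refer to another build and are not printed, and protein sequences were not analysed here. Columns of other series numbered 0.

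The members and all lists were chosen with earlier results of these data known. The text names all members, every gene of lists of 8 or fewer, otherwise up to 4 genes per list by size of difference, and the 5 genes of most similar profile; other genes named, among them neighbours and dim genes, were chosen after their values were seen. The value of 1 listed gene is not reported here. Limits for fold counts were 2, 10 and 100, and that of 2 at 48 h was added after the data were seen.

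Alternatives numbered 8, namely no normalization, scaling to the 75th percentile, normexp (offset 50, on the median spot signal), no limit for dim probes, only probes above background on both arrays, averaging all probes of a gene, outlier-marked spots kept, and the combined table. Computation used Python 3.11.15, numpy 2.4.6, pandas 2.3.3 and matplotlib 3.10.9, and limma 3.58.1 under R 4.3.3. The steps were tested on simulated data.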

Additional observations from a re-analysis of the deposited data

Results flagged for a closer look

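SPRR4, a small proline-rich gene beside IVL, differed between the peptides in opposite directions at the 2 times. With non-specific stapled-peptide it was 1.96 ± 0.29 higher on the log2 scale at 24 h, whereas at 48 h the difference was -1.26 ± 0.36. Its log2 signals were 4.59 and 6.54 at 24 h and 5.22 and 3.95 at 48 h, with stapled-peptide first. It stands out because the single array of each group moved opposite ways at the times, and this change of direction was not tested. The difference at 24 h rests on the single high signal of 6.54. At 48 h the signal of 3.95 was near the smallest marked signal, 3.57, of the array that stood apart over all probes.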

How the results depend on the processing

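No paired analysis was possible because every group consists of a single array, so neither a replicate block nor leaving out a replicate could be fitted. The signs of all 9 members lower at 48 h held under those of the 8 alternatives that gave a value, except for SPRR2A (0.15 as the mean over probes), and SPRR3 turned as given above. SPRR1B, IVL, PI3 and SERPINB5 had a value under 7 alternatives. Under normexp the members lower by over 100-fold at 48 h went from 2 to 0 (all genes from 121 to 41) and their median from -1.87 to -1.23. With only probes above background on both arrays, which kept 6 members, the counts past 100-fold, 10-fold and 2-fold were 1, 2 and 3 (all genes past 100-fold: 77). The median of stapled-peptide over time was -0.28 without normalization, over 9 members. That of non-specific stapled-peptide over time was -2.86 with scaling to the 75th percentile, -1.25 under normexp and -2.71 with probes above background on both arrays. These medians cover 9, 10 and 5 members, so the set changed as well as the processing. The values -2.86 and -2.71 are those of TGM1. At 48 h, normexp moved 7 of 10 members by more than the scanner error of their difference, and scaling to the 75th percentile 4 of 10. Keeping outlier-marked spots, the combined table and, for single-probe genes, the mean over probes could hardly move a member by construction. SERPINB5 ranged from -9.04 to -6.38, SFN from -7.85 to -6.58, CSTA from -5.40 to -3.41, PI3 from -5.04 to -2.05 and TGM1 from -2.81 to -1.62. The values of SPRR1B and IVL ranged up to -0.24 and -0.33. Signal near background limits the 4 dimmest members.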

Other observations

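Enzymes and regulators of squamous differentiation outside the envelope itself were not uniform at 48 h. Of 10 enzymes of cornified lipids with a difference, 2 were lower by over 2-fold and 2 higher, beside 19.8% and 21.2% of all genes. ABCA12, which loads lipids into lamellar granules, had a limit of -5.45, whereas ELOVL4, which elongates very long fatty acids, was 2.98 ± 0.30 higher and SULT2B1 at least 1.61 higher. Epidermal kallikreins, the proteases of desquamation, gave 2 of 6 lower and 2 higher (KLK8 by at least 1.81, KLK9 by 1.59). The lower ones were KLK6, at -1.43 from its own dim signal, and KLK5, at a limit of -1.06, although a second probe of KLK6 gave -0.30.

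Transcription factors and signalling genes of terminal differentiation gave 21 differences at 48 h, with a median of -1.01. Of these, 11 were lower by over 2-fold and 6 higher, beside 19.8% and 21.2% of all genes. MAF was 4.75 ± 0.25 higher, GRHL1 4.45 higher (0.54 by another probe) and JUN 4.31 ± 0.21 higher, while JUNB differed by -3.58 ± 0.25. At 24 h 0 of the 19 with a difference passed 2-fold, beside 1.87% of all genes. KLK14 stood apart at 24 h, at -2.21 on the log2 scale between the peptides. That difference rests on the single high signal of 7.01 with stapled-peptide at 24 h. On every other array its log2 signal was 4.85 or lower, and stapled-peptide at 48 h against 24 h gave -2.16.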
